A study of Mus musculus with 14 samples.

Results

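Neutrophils store their antimicrobial proteins in granules that are made one class after another as the cell matures. The 10 genes of the later classes described here belong to the secondary (specific) and tertiary (gelatinase) granules and were measured in bone marrow cells of tumour-bearing mice. They were chosen by name as granule genes of myelocytes and later neutrophils, and their probe sets were taken by the gene symbol of the platform annotation. Of the 10 genes, 8 have a probe set named for them alone, which gives 9 probe sets among 22626 tested. These genes are Ltf, Camp, Ngp, Lcn2, Mmp8, Mmp9, Cd177 and Chil3. Fcnb and Retnlg have no probe set under their own symbol and are not analysed here, and a further probe set that carries both Chil3 and Chil4 was not used.

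The cells came from bone marrow and were sorted by flow cytometry for the presence of Sca1 on their surface and the absence of cKit. The groups are 5 arrays from mice bearing a BPLER tumour (Instigator), 5 arrays from mice bearing a PC3 tumour (Non-instigator) and 4 arrays from mice with Matrigel and no tumour (Matrigel). BPLER is a line of experimentally transformed human mammary epithelial cells, PC3 is a human prostate cancer line, and Matrigel is a basement membrane gel. Instigating tumours drive the outgrowth of indolent tumour cells elsewhere in the host, and the tumours were matched in size. The labels give no host strain, age, time after implantation or number of animals, so a p-value reflects only how far these arrays spread, and that spread may be technical. The array titled Instigator 5 is described elsewhere in its own labels as coming from a PC3 host, and it was kept under its title.

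Values are log2 of the deposited intensity, on which 1 unit is a doubling. A difference is the fitted difference of group means, and it was called where limma's p was under 0.05 after Benjamini-Hochberg adjustment across all 22626 probe sets. A pair of arrays stood apart on measures outside the granule genes. For the beta-actin control, signal at the 5′ end minus that at the 3′ end was -3.41 on Instigator 4 and between -0.81 and -0.51 elsewhere. Matrigel 3 had a median log2 value of 7.18, against 6.90 to 7.01 on the others. Each array holds RNA of a mixed sorted population, so more cells of a type and more RNA per cell cannot be told apart.

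Granule genes are switched on in a fixed order during granulocyte development. Myeloperoxidase and the serine proteases of the primary granules come first, in promyelocytes. Lactoferrin, cathelicidin and lipocalin follow in myelocytes, and gelatinase comes in metamyelocytes and band cells. Transcription factors of the C/EBP family, above all C/EBP epsilon, are needed for the later classes in the mouse. The gene for C/EBP epsilon, Cebpe, has no probe set of its own in the annotation.

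The upstream sequences of every measured granule gene with a promoter window are shown, to set the letters before the start of each gene beside one another. RefSeq promoter windows on assembly GRCm38.p6 were found for 9 of the 10 genes, all but Mmp9, and the 250 bases before the transcription start are given 5′ to 3′ on the strand of the gene. Capitals mark matches to the C/EBP-type motif TTNNGNAA on either strand.
Ltf, chr9:111019042-111019291, plus strand: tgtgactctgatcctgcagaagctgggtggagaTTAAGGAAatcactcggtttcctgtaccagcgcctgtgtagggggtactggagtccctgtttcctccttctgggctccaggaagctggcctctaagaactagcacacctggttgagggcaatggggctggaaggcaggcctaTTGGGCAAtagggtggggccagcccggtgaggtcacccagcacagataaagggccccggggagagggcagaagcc
Ngp, chr9:110419558-110419807, plus strand: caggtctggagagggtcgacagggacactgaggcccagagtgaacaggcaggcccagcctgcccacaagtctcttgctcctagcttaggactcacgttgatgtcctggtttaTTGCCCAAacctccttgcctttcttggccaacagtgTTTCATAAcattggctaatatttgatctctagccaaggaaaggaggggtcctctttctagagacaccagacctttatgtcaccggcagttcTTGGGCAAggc
Lcn2, chr2:32387740-32387989, minus strand: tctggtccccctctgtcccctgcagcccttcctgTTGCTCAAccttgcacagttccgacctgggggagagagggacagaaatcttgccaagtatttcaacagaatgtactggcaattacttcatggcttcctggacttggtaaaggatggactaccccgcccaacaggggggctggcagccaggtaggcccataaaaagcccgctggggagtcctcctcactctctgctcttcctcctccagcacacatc
Mmp8, chr9:7558179-7558428, plus strand: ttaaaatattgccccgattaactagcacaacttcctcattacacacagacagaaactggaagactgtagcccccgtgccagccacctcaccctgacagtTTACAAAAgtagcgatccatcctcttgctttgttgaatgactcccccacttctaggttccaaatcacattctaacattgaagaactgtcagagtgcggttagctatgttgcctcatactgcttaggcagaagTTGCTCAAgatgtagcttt
Cd177, chr7:24760312-24760561, minus strand: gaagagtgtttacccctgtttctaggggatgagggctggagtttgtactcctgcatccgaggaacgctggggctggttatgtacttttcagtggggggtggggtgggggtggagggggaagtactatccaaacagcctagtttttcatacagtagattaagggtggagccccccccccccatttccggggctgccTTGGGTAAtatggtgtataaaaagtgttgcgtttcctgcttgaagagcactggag
Camp, chr9:109849457-109849706, minus strand: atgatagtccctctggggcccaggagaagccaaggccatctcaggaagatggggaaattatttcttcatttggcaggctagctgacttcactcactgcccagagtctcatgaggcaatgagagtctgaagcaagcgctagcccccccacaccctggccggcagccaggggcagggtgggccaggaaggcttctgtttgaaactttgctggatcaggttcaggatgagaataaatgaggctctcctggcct
Chil3, chr3:106167565-106167814, minus strand: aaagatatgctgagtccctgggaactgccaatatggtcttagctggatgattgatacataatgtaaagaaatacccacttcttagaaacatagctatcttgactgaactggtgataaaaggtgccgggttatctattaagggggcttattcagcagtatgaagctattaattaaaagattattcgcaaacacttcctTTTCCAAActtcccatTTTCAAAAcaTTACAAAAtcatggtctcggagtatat

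The letters TTNNGNAA, or their reverse complement TTNCNNAA, occur in 8 of the 9 granule gene windows and in 36.8% of all 32851 windows of the same length. Ltf and Ngp both hold the 8 letters TTGGGCAA, at -75 to -68 in Ltf and at -11 to -4 in Ngp, counted from the start. The number of matches was 3 in Ngp and Chil3, 2 in Ltf and Mmp8, 1 in Lcn2 and Cd177, and 0 in Camp. The ETS-type motif GAGGAA, or TTCCTC, which the myeloid factor PU.1 can bind, occurs in 4 of the 9 windows and in 23.3% of all windows. A match describes letters in a window and not a bound site.

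Against Matrigel, the granule genes of Instigator arrays lay higher at 8 of 9 probe sets, by at most 1.36-fold, and none passed the test. The differences of the 8 genes, each at its brightest probe set, had a median of 0.32, against -0.02 over all 12393 genes, and ran from -0.10 for Camp to 0.44 for Mmp8. The number called was 0 of 9, where 0.00% of all probe sets were called. At an unadjusted limma p under 0.05, the probe sets of Ltf, Ngp, Mmp8 and Cd177 were higher, 4 of 9, where 3.27% of all probe sets were higher at that p. The probe sets with a difference above 0 made up 42.8% of all.

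Among the secondary granule proteins, lactoferrin (Ltf) binds iron and withholds it from microbes. Ltf lay at 12.50, 12.18, 12.42, 12.26 and 12.19 in Instigator 1 to 5, at 12.21, 12.01, 12.56, 12.15 and 12.07 in Non-instigator 1 to 5, and at 12.06, 12.22, 11.22 and 12.004 in Matrigel 1 to 4. Matrigel 3 was the lowest of all arrays, and Matrigel 4 (12.004) also lay below every tumour array. Matrigel 1 lay inside the Non-instigator range but below every Instigator array, and Matrigel 2 lay inside both tumour ranges. The difference from Matrigel was 0.43 for Instigator arrays (SE 0.17, 95% confidence interval 0.06 to 0.80, limma adjusted p = 0.442). For Non-instigator arrays it was 0.32 (SE 0.17, limma adjusted p = 0.986). Without Matrigel 3 these differences were 0.21 and 0.11.

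Ngp encodes neutrophilic granule protein, a relative of the cathelicidins and cystatins. It lay at 12.62, 12.52, 12.53, 12.72 and 12.40 in Instigator 1 to 5, at 12.45, 12.44, 12.62, 12.40 and 12.45 in Non-instigator 1 to 5, and at 12.44, 12.47, 12.18 and 12.23 in Matrigel 1 to 4. Instigator arrays other than Instigator 5 lay above every Matrigel array, while 1 Non-instigator array did. The difference from Matrigel was 0.23 for Instigator arrays (SE 0.09, 95% confidence interval 0.04 to 0.42, limma adjusted p = 0.442) and 0.14 for Non-instigator arrays (SE 0.09, limma adjusted p = 0.986). Without Instigator 4 and Matrigel 3 they were 0.14 and 0.09.

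Lipocalin 2 (Lcn2) binds the siderophores with which bacteria take up iron. It lay at 12.88, 12.74, 12.77, 12.72 and 12.65 in Instigator 1 to 5, at 12.71, 12.63, 12.87, 12.74 and 12.70 in Non-instigator 1 to 5, and at 12.66, 12.77, 12.54 and 12.57 in Matrigel 1 to 4. The groups overlapped, and the values of all 14 arrays spanned 0.34, the narrowest span among the 8 genes. Lcn2 had a mean of 12.71, above that of 99.6% of genes, while Camp, with a mean of 13.06, spanned 1.20. Whether so high a level bears on the span was not tested. The difference from Matrigel was 0.12 for Instigator arrays (SE 0.08, limma adjusted p = 0.600) and 0.10 for Non-instigator arrays (SE 0.08, limma adjusted p = 0.986). Without Matrigel 3 they were 0.083 and 0.062.

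Cathelicidin (Camp) is cut to the antimicrobial peptide CRAMP in the mouse. It lay at 13.31, 13.08, 13.16, 12.12 and 13.07 in Instigator 1 to 5, at 13.17, 13.16, 13.32, 13.09 and 13.17 in Non-instigator 1 to 5, and at 12.88, 13.29, 12.86 and 13.17 in Matrigel 1 to 4. The groups overlapped apart from Instigator 4, which was 0.94 below the mean of the 14 arrays. Camp had a mean of 12.95 ± 0.47 (SD, n = 5) on the Instigator side and of 13.05 ± 0.21 (SD, n = 4) on the Matrigel side, a difference of -0.10 (SE 0.19, limma adjusted p = 0.849). Without Instigator 4 the difference was 0.11, so its direction rests on that array. For Non-instigator arrays the difference from Matrigel was 0.13 (SE 0.19, limma adjusted p = 0.986), and it was 0.068 without Matrigel 3 and 0.21 without Matrigel 2.

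Mmp8, the neutrophil collagenase, had the largest Instigator difference among the 8 genes. It lay at 10.35, 10.06, 9.98, 10.002 and 10.06 in Instigator 1 to 5, at 9.98, 9.73, 10.24, 10.23 and 9.90 in Non-instigator 1 to 5, and at 9.91, 9.91, 9.35 and 9.42 in Matrigel 1 to 4. Every Instigator array lay above every Matrigel array, the nearest pair being 9.98 and 9.91, while the Non-instigator arrays overlapped both groups. Mmp8 was the only 1 of the 9 probe sets whose Instigator and Matrigel arrays did not overlap, and 1.02% of all probe sets were higher in this way. The Instigator difference was 0.44 (SE 0.14, 95% confidence interval 0.13 to 0.75, limma adjusted p = 0.439). The Non-instigator difference was 0.37 (SE 0.14, 95% confidence interval 0.06 to 0.67, limma adjusted p = 0.986), and without Matrigel 3 the differences were 0.34 and 0.27.

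Cd177 is a surface antigen of neutrophils that is also held in the membrane of secondary granules. It lay at 10.81, 10.30, 10.49, 10.48 and 10.29 in Instigator 1 to 5, at 10.45, 10.08, 10.60, 10.28 and 10.25 in Non-instigator 1 to 5, and at 10.24, 10.34, 9.70 and 9.88 in Matrigel 1 to 4. Matrigel 3 and Matrigel 4 lay below all tumour arrays, and Matrigel 1 and Matrigel 2 lay among them. The difference from Matrigel was 0.43 for Instigator arrays (SE 0.15, 95% confidence interval 0.12 to 0.75, limma adjusted p = 0.439) and 0.29 for Non-instigator arrays (SE 0.15, limma adjusted p = 0.986). Without Matrigel 3 they were 0.32 and 0.18.

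Mmp9, gelatinase B, is the enzyme that defines the tertiary granule and has 2 probe sets. At the brighter one it lay at 11.74, 11.53, 11.49, 11.39 and 11.45 in Instigator 1 to 5, at 11.49, 11.23, 11.76, 11.54 and 11.24 in Non-instigator 1 to 5, and at 11.58, 11.48, 10.59 and 10.91 in Matrigel 1 to 4. Both probe sets were low on Matrigel 3 and Matrigel 4, while Matrigel 1 and Matrigel 2 lay inside the tumour range. At the dimmer one the values were 10.23, 9.96, 9.95, 9.33 and 10.06 in Instigator 1 to 5, 9.91, 9.69, 10.40, 10.01 and 9.82 in Non-instigator 1 to 5, and 9.89, 9.89, 9.16 and 9.23 in Matrigel 1 to 4. The probe sets differ on Instigator 4, which stood clear below its group at the dimmer set (9.33, with the next array at 9.95) and close to it at the brighter one (11.39, with the next at 11.45). The Instigator difference from Matrigel was 0.38 (SE 0.18, limma adjusted p = 0.488) at the brighter set and 0.36 (SE 0.20, limma adjusted p = 0.541) at the dimmer set. The Non-instigator difference was 0.31 (SE 0.18) and 0.43 (SE 0.20), each with a limma adjusted p of 0.986. Without Matrigel 3 the differences at the brighter set were 0.20 for Instigator and 0.13 for Non-instigator arrays, and at the dimmer set they were 0.24 and 0.30. Without Instigator 4 the Instigator difference at the dimmer set was 0.51.

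Chil3 encodes the chitinase-like protein Ym1, which mouse neutrophils and some macrophages make. It lay at 11.85, 11.59, 11.64, 12.26 and 11.39 in Instigator 1 to 5, at 11.62, 11.62, 12.02, 11.65 and 11.66 in Non-instigator 1 to 5, and at 11.10, 11.60, 11.65 and 11.60 in Matrigel 1 to 4. The low Matrigel array here was Matrigel 1, not Matrigel 3, and the highest array of all was Instigator 4. The difference from Matrigel was 0.26 for Instigator arrays (SE 0.16, limma adjusted p = 0.578) and 0.22 for Non-instigator arrays (SE 0.16, limma adjusted p = 0.986). Without Instigator 4 the Instigator difference was 0.13, and without Matrigel 1 the Non-instigator difference was 0.10.

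**Figure D1:**
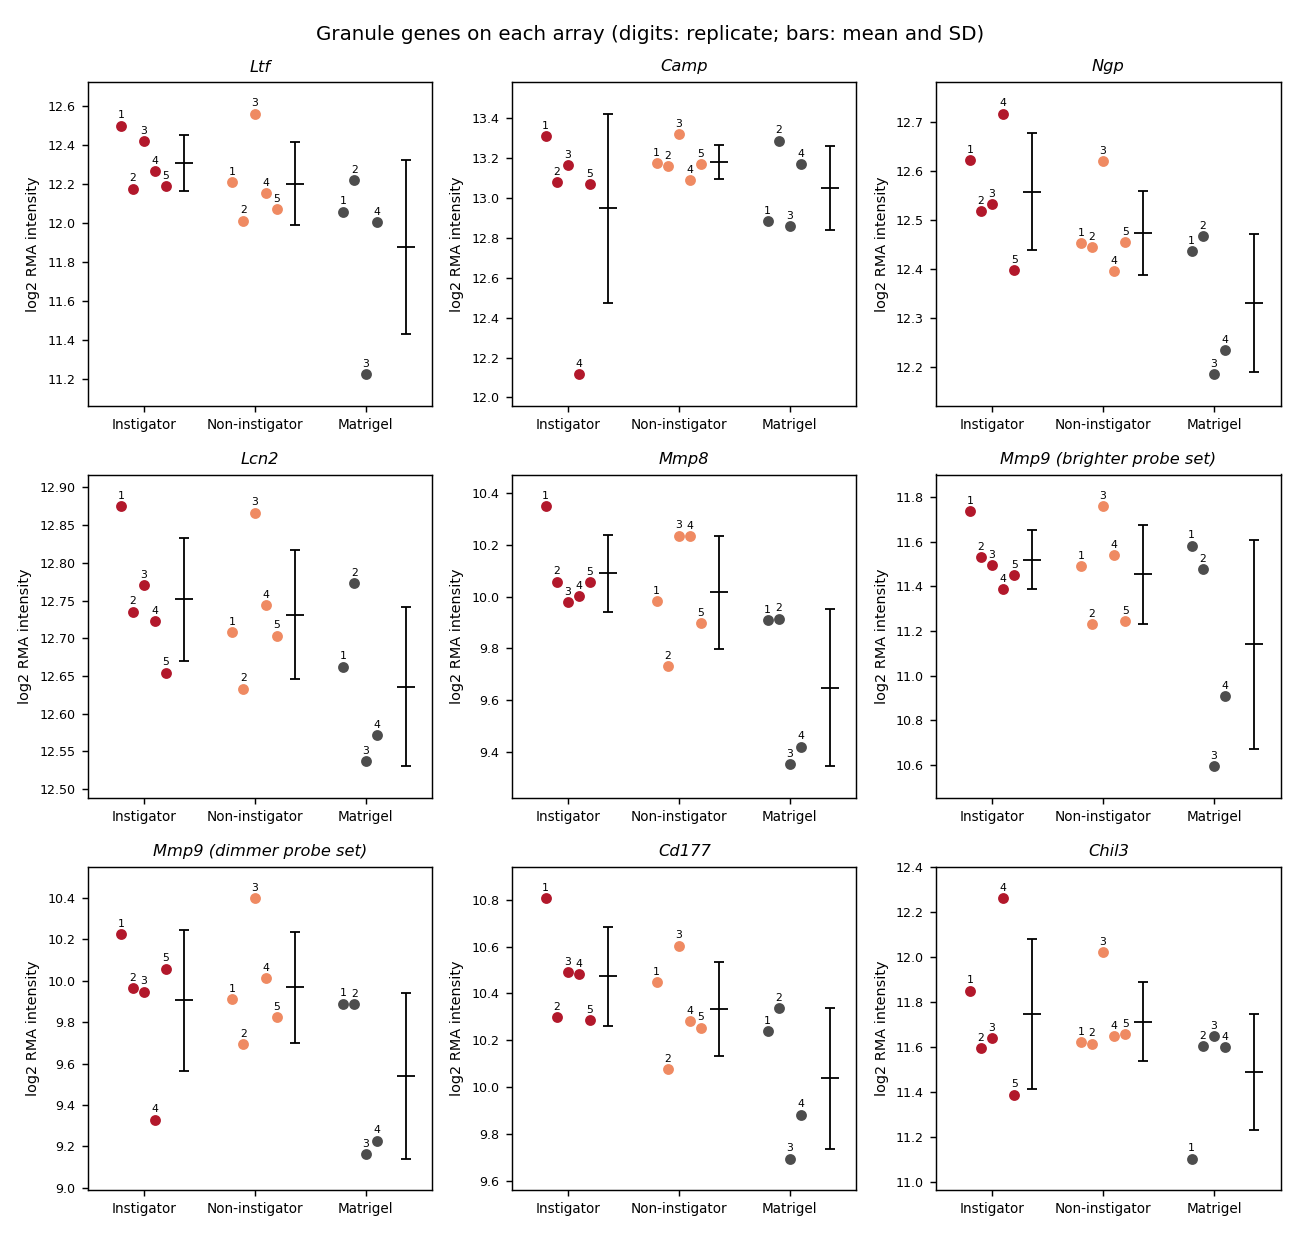
Log2 RMA intensity (y axis, a separate range in each panel) of the 9 granule probe sets on each array of the 3 groups, with digits for the replicate number and bars for the mean and SD. Matrigel 3 was lowest of the 14 arrays for 6 of the 8 genes at the brightest probe set, and Instigator 1 and Non-instigator 3 were among the highest 3 for all 8.

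The Non-instigator comparison, which uses the same 4 Matrigel arrays, gave differences above 0 at 9 of 9 probe sets, where 36.2% of all probe sets lay above 0. The median over the 8 genes was 0.26, against -0.04 over all genes. The number called was again 0 of 9, with 0.00% of all probe sets called. At an unadjusted limma p under 0.05, Mmp8 alone was higher, 1 of 9, against 0.601% of all probe sets. No granule probe set separated the groups without overlap, where 0.287% of all probe sets were higher in that way.

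The tumour groups set against each other ask whether instigating activity adds to what a tumour of that size does. Each tumour group holds 1 line, so instigating activity and the tumour line cannot be told apart. Instigator arrays lay above Non-instigator arrays at 7 of 9 probe sets, where 55.8% of all probe sets did, with a median over the 8 genes of 0.07 and of 0.03 over all genes. The number called was 0 of 9, where 0.00% of all probe sets were called, and 0 of 9 reached an unadjusted limma p under 0.05, against 2.24% of all probe sets higher and 3.36% lower. For Cd177 the difference was 0.14 (95% confidence interval -0.16 to 0.44), and for Ltf it was 0.11 (95% confidence interval -0.24 to 0.45). Mmp8 differed by 0.07 (95% confidence interval -0.22 to 0.36) and Lcn2 by 0.02 (95% confidence interval -0.14 to 0.18). Camp differed by -0.23 (95% confidence interval -0.62 to 0.15) with all arrays and by -0.026 without Instigator 4. The dimmer Mmp9 set, the other one below 0, differed by -0.06 with all arrays, by 0.080 without Instigator 4 and by 0.044 without Non-instigator 3. With single arrays left out, Cd177 ran from 0.057 and Ltf from 0.060, both without Instigator 1, to 0.21 and 0.20 without Non-instigator 3. Mmp8 ran from 0.0018 without Non-instigator 2 to 0.13 without Non-instigator 3. The intervals leave room for a difference in either direction at every one of these genes.

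**Figure D2:**
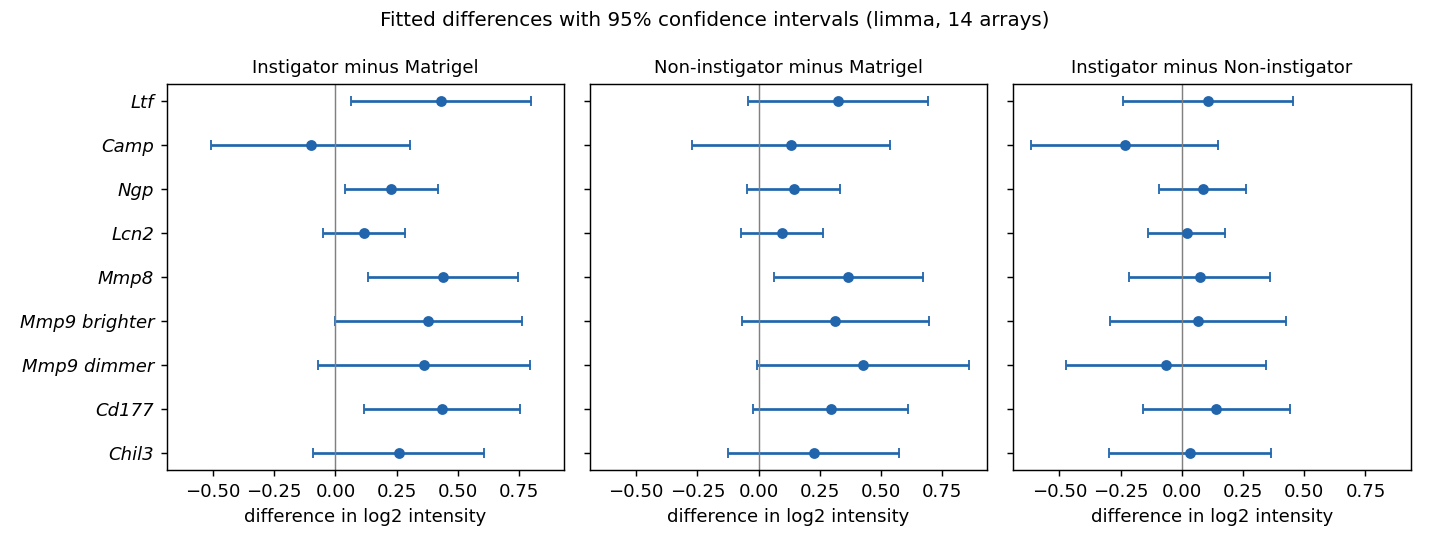
Fitted difference in log2 intensity (x axis) with its 95% confidence interval for each granule probe set (rows) in the 3 comparisons. The intervals exclude 0 for Ltf, Ngp, Mmp8 and Cd177 in Instigator minus Matrigel, for Mmp8 in Non-instigator minus Matrigel and for none in Instigator minus Non-instigator, and no adjusted p was under 0.05.

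The granule genes varied together from array to array. The mean of the 8 genes was highest on Instigator 1 (12.01) and Non-instigator 3 (11.998) and lowest on Matrigel 3 (11.26), Matrigel 4 (11.47) and Matrigel 1 (11.61). It ran from 11.69 to 12.01 in Instigator, from 11.61 to 11.998 in Non-instigator and from 11.26 to 11.76 in Matrigel arrays, so each pair of groups overlapped. Non-instigator 2, at 11.61, was among the 3 lowest arrays for 5 of the 8 genes. Against the mean of the other 7 genes over the 14 arrays, Pearson r was 0.96 for Lcn2, 0.94 for Cd177, 0.91 for Ltf, 0.88 for Mmp8, 0.87 for Mmp9 and 0.80 for Ngp, but 0.09 for Camp and 0.23 for Chil3. Over the 12 arrays without Instigator 4 and Matrigel 3 it was 0.53 for Camp and 0.56 for Chil3. On Instigator 4, Camp was 0.94 below its mean over the arrays, whereas Chil3 was 0.60 above and Ngp 0.26 above.

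**Figure D3:**
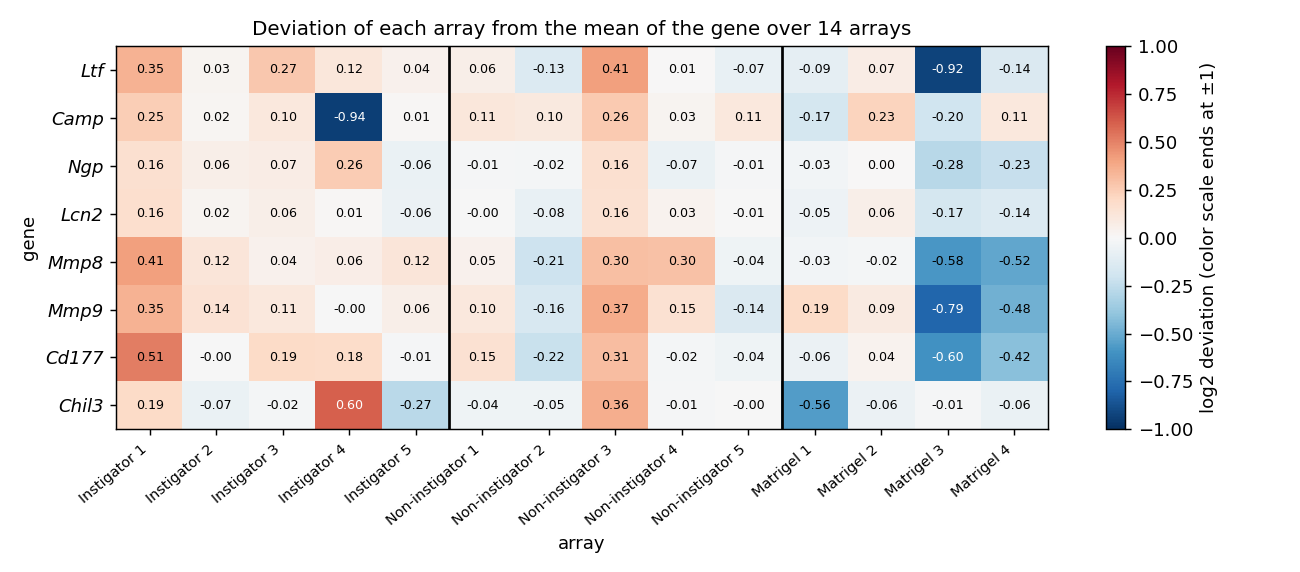
Deviation in log2 intensity of each array (columns) from the mean over 14 arrays of each granule gene (rows, brightest probe set), with red above and blue below the mean. Matrigel 3 lies below the mean in every row, from -0.012 for Chil3 to -0.92 for Ltf, and Instigator 4 is -0.94 for Camp and 0.60 for Chil3.

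As a description across arrays, which share their preparation and normalization, the Pearson r of the 28 gene pairs had a median of 0.76 over 14 arrays and ran from -0.34 for Camp with Chil3 to 0.93. Without Instigator 4 and Matrigel 3 the median was 0.75 and the lowest value 0.14. After each group's mean was taken out, the median was 0.63 and the lowest value -0.39, with 24 of 28 above 0. Among single pairs, Mmp8 and Mmp9, both collagen-degrading metalloproteinases, had an r of 0.93, and Lcn2 and Cd177 also had 0.93.

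The genes outside the list whose values over the 14 arrays were most like the mean of the 8 were Ifitm6 (r = 0.89), Actn1 (0.89), Bst1 (0.86), Cd33 (0.85), Atp6ap1 (0.83), Fpr2 (0.83), Itgb2l (0.83) and Ccr1 (0.82). Fpr2 is a receptor for formylated peptides on neutrophils, Cd33 a sialic acid-binding receptor of myeloid cells, and Itgb2l an integrin beta chain related to the leukocyte integrin Itgb2. Over the 12 arrays without Instigator 4 and Matrigel 3, the leading genes were Fpr2 (0.92), Itgb2l (0.89), Actn1 (0.89), Gcnt2 (0.89), Chil1 (0.88), Rflnb (0.88), Ifitm6 (0.87) and Col4a3 (0.86). Of these, Rflnb had an r of only 0.23 over all 14 arrays and Col4a3 of 0.50. Col4a3 was also dim, with a mean log2 value of 4.32. Each r has n = 14 or n = 12 arrays and carries no p, since the genes were picked for it.

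Genes of the other neutrophil lists passed no test in any comparison. Of 8 measured primary granule genes, 0 were called in either direction in each comparison. Their median was 0.12 for Instigator against Matrigel and -0.09 for Non-instigator against Matrigel, with 7 of 8 above 0 in the first and 1 of 8 in the second. Over all 12393 genes, 45.9% lay above 0 in the first and 38.3% in the second. Between the tumour groups their median was 0.26, with 8 of 8 above 0, where 58.2% of all genes lay above 0. The largest differences there were 0.50 (SE 0.24) for Ms4a3, a membrane protein of early myeloid cells, 0.38 (SE 0.23) for proteinase 3 (Prtn3), 0.34 (SE 0.12) for the protease-activating cathepsin C (Ctsc) and 0.32 (SE 0.19) for cathepsin G (Ctsg). The smallest limma adjusted p among these genes was 0.813 in that comparison, 0.497 in Instigator against Matrigel and 0.986 in Non-instigator against Matrigel. At an unadjusted limma p under 0.05, only Ctsc between the tumour groups passed, where 2.24% of all probe sets were higher at that p. Without Non-instigator 5 the list median was 0.13, and Ms4a3 differed by 0.30, Prtn3 by 0.17 and Ctsg by 0.15. The list median in Non-instigator against Matrigel was 0.010 without Non-instigator 5. In Instigator against Matrigel it was 0.024 without Matrigel 2. The later granule genes gave a median of 0.07 between the tumour groups, and the difference between the lists was not tested.

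Of 9 measured granulocyte transcription factor genes, 0 were called. In Instigator against Matrigel 8 of 9 lay above 0, where 45.9% of all genes did, with a median of 0.25. Cebpd was the only 1 of the 9 with an unadjusted limma p under 0.05, in that comparison alone, where 3.27% of all probe sets were higher. It differed by 0.48 (SE 0.17, limma adjusted p = 0.439), Spi1, which encodes PU.1, by 0.29 (SE 0.15), Cebpb by 0.28 (SE 0.15) and Gfi1, a repressor needed for neutrophil production, by 0.28 (SE 0.16). Cebpd was highest on Instigator 4 (9.48). Its difference was 0.35 without that array and 0.28 without Instigator 4 and Matrigel 3. In Non-instigator against Matrigel the median was 0.06, with 6 of 9 above 0, against 38.3% of all genes, and Cebpd differed by 0.20 (SE 0.17). Without Non-instigator 1 that median was -0.07 and the Cebpd difference 0.11. Between the tumour groups the median was 0.23, with 7 of 9 above 0, against 58.2% of all genes. That median was 0.15 without Instigator 4 and 0.095 without Non-instigator 5. Without Matrigel 3 the Spi1 difference in Instigator against Matrigel was 0.16, and without Matrigel 2 the Cebpb difference was 0.17.

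Of 14 measured genes for other late granule and effector proteins, 0 were called in each comparison. At an unadjusted limma p under 0.05, 3 were higher in Instigator against Matrigel, 1 in Non-instigator against Matrigel and 0 between the tumour groups, and 0 were lower. Of all 22626 probe sets, 3.27%, 0.601% and 2.24% were higher at that p in these comparisons, and 1584, 341 and 761 probe sets were lower. Stfa3, a stefin of the cysteine protease inhibitors, had the largest difference, 1.18 (SE 0.34, limma adjusted p = 0.439) in Instigator and 1.00 (SE 0.34, limma adjusted p = 0.986) in Non-instigator against Matrigel. Padi4, the enzyme that citrullinates histones in neutrophil extracellular traps, differed by 0.75 (SE 0.33) in Instigator and 0.32 (SE 0.33) in Non-instigator against Matrigel. Cybb, a subunit of the oxidase that makes superoxide, lay the other way in Instigator against Matrigel, at -0.46 (SE 0.26). Without Instigator 4 the Instigator differences were 0.36 for Padi4 and -0.20 for Cybb. The list medians were 0.16 for Instigator and 0.17 for Non-instigator against Matrigel, and 0.00 between the tumour groups. Without Matrigel 3 the medians against Matrigel were 0.014 for Instigator and 0.062 for Non-instigator. Of 9 measured surface and S100 genes, 0 were called, and the medians were 0.13, 0.11 and 0.07 for the same comparisons. At an unadjusted limma p under 0.05, 2 of these 9 genes were higher in Instigator against Matrigel, where 3.27% of all probe sets were. In the other comparisons 0 of these 9 genes were higher, and 0 were lower in any. Among these Fpr2 differed by 0.47 (SE 0.15, limma adjusted p = 0.439), the granulocyte growth factor receptor Csf3r by 0.38 (SE 0.20) and S100a8, a calcium-binding protein of the neutrophil cytosol, by 0.20 (SE 0.08) in Instigator against Matrigel. Without Matrigel 3 the Csf3r difference was 0.23 and the list median in Non-instigator against Matrigel was 0.06. The Fpr2 difference was 0.25 without Instigator 4 and Matrigel 3.

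**Figure D4:**
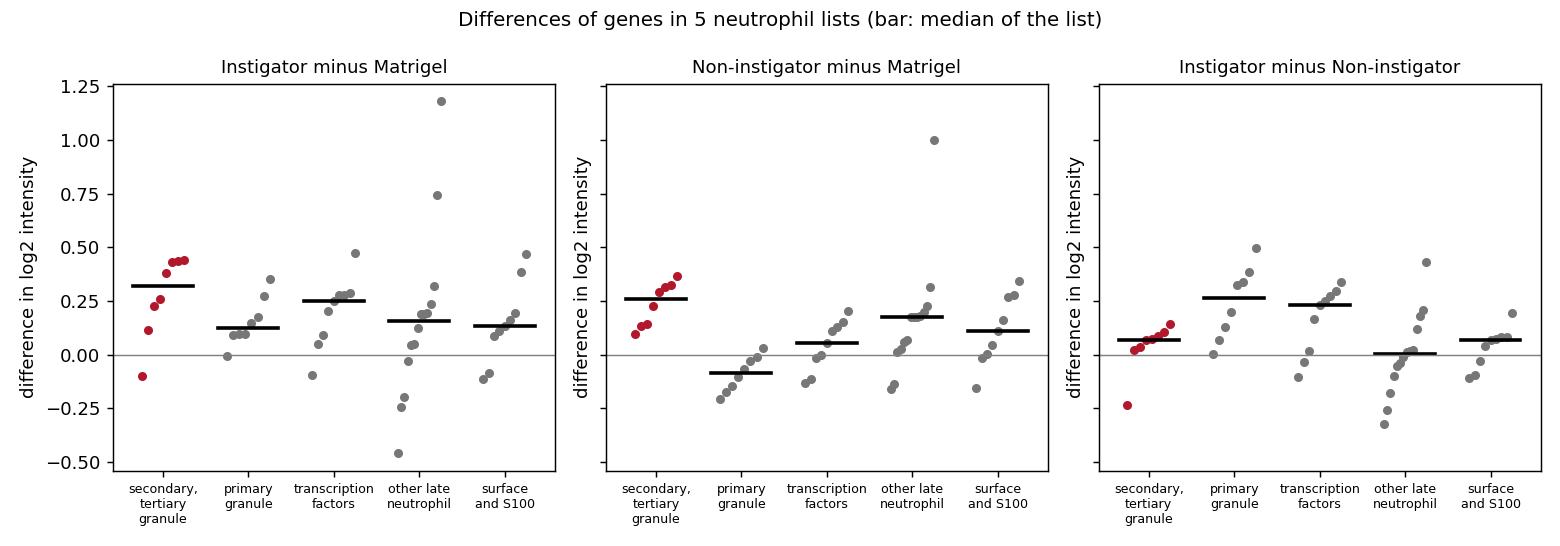
Difference in log2 intensity (y axis) of each measured gene (points) in the granule list and the other 4 neutrophil lists, with a bar at the median of each list, in the 3 comparisons. The granule medians were 0.32, 0.26 and 0.07 from left to right, and those of the primary granule list were 0.12, -0.09 and 0.26.

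Markers of 9 other cell types are set beside the granule genes, and 0 of them were called in any comparison. Over all 12393 genes, 45.9% lay above 0 in Instigator against Matrigel. In Instigator against Matrigel, 6 of 6 plasmacytoid dendritic cell genes were lower, with a median of -0.75, and their mean level per array ran from 8.001 to 9.07 in Instigator and from 9.04 to 9.76 in Matrigel arrays. Of 9 B lineage genes 8 were lower, with a median of -0.49 and mean levels of 7.77 to 8.96 in Instigator and 8.73 to 9.20 in Matrigel arrays. The plasma cell median was -0.41 (6 of 6 lower), the T cell median -0.33 (7 of 7 lower) and the NK cell median -0.07 (6 of 6 lower). The medians were -0.05 for monocytes and macrophages, -0.06 for erythroid cells and 0.06 for haematopoietic progenitors, with 4 of 8, 4 of 7 and 3 of 7 genes lower. In the list for basophils, mast cells and eosinophils, 7 of 8 genes were higher, with a median of 0.46. That median fell to 0.30 when Matrigel 3 was left out, and to 0.12 when Instigator 4 was left out as well. At an unadjusted limma p under 0.05, the genes on the lower side numbered 6 of 6 for plasmacytoid dendritic cells, 3 of 9 for the B lineage, 2 of 6 for plasma cells and 1 of 7 for T cells, where 1584 of all 22626 probe sets were lower at that p. In Non-instigator against Matrigel the medians were -0.34 for plasmacytoid dendritic cells, -0.20 for the B lineage, 0.03 for plasma cells, 0.02 for T cells, 0.20 for NK cells and 0.39 for basophils, mast cells and eosinophils. They were -0.15 for monocytes and macrophages, 0.15 for erythroid cells and -0.15 for progenitors. The NK cell list thus lay below 0 in Instigator and above 0 in Non-instigator arrays against Matrigel, while the granule median was above 0 in both. The plasma cell and T cell medians in Non-instigator against Matrigel were near 0 and changed sign with single arrays left out. For plasma cells the median ran from -0.07 without Matrigel 2 to 0.19 without Non-instigator 1. For T cells it ran from -0.17 without Non-instigator 4 to 0.22 without Non-instigator 1. The progenitor median in that comparison was 0.024 without Matrigel 1. Without Instigator 3 the B lineage median was -0.21 in Instigator against Matrigel. Among single arrays, Matrigel 2 had the highest plasmacytoid dendritic cell level of its group (9.76) and also the highest granule mean of its group (11.76). RMA values have no 0, so none of these markers can be called absent. The part of these cells in the granule differences was not tested.

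The size of the granule differences against Matrigel depended on Matrigel 3. Without it the median over the 8 genes was 0.21 in Instigator and 0.12 in Non-instigator against Matrigel, and 2 of 9 and 0 of 9 probe sets had an unadjusted limma p under 0.05. The share of all probe sets at that p without Matrigel 3 is not given here, so these counts have no background beside them. Over all genes the medians without that array were 0.03 and 0.0048. Counting Instigator 5 as Non-instigator, as its description has it, gave medians of 0.37 and 0.23 against Matrigel and 0.11 between the tumour groups. With Instigator 5 kept under its title, the median between the tumour groups was 0.07 with all arrays. It was 0.01 without Instigator 1 and 0.01 without Non-instigator 2.

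**Figure D5:**
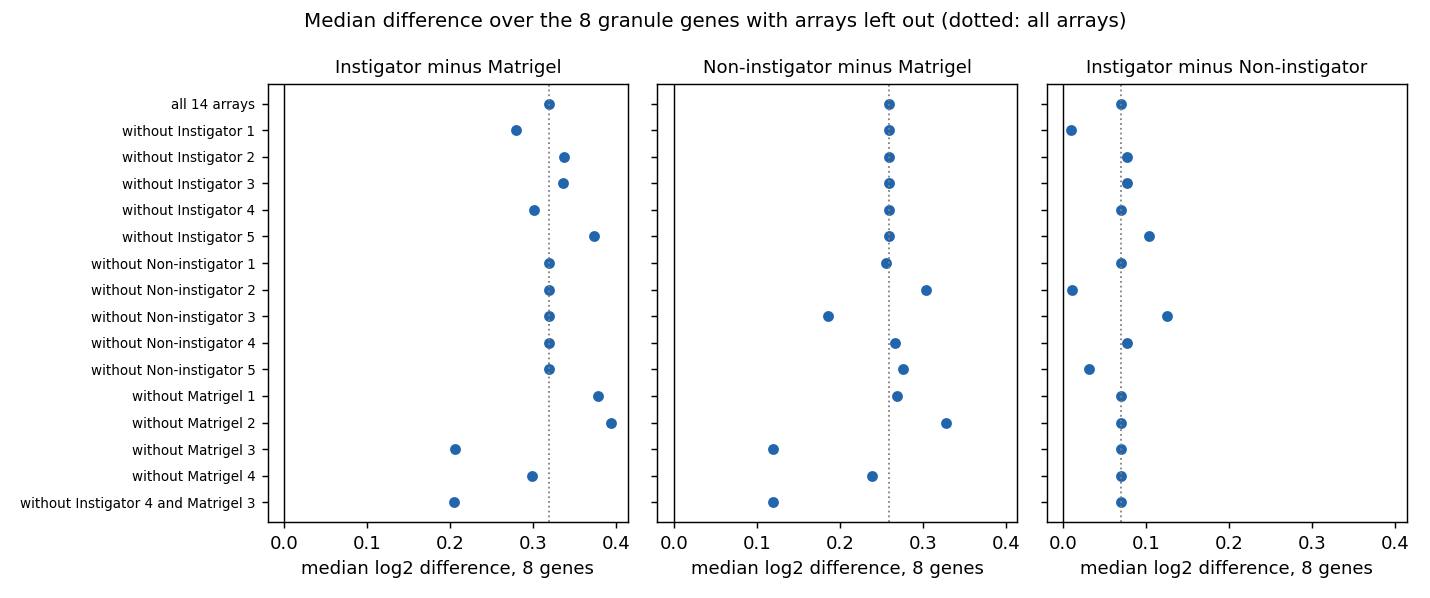
Median difference in log2 intensity over the 8 granule genes (x axis) with all 14 arrays and with arrays left out (rows), in the 3 comparisons. Without Matrigel 3 the medians against Matrigel were 0.21 for Instigator and 0.12 for Non-instigator, against 0.32 and 0.26 with all arrays.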

How the data were processed

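The series was profiled on Affymetrix mouse arrays in 14 samples of sorted bone marrow cells. Per the labels' protocols, RNA came from Qiagen kits, and NuGen's Ovation system was used for biotin labelling. The deposited values are linear intensity values of 22690 probe sets, made by the authors with the affy package's RMA (R 2.11.0), per the submitters' processing notes. The sources used here give neither the RMA options nor a genome build. The values were not normalized again, and their log2 was taken. Precision is limited by the number of arrays, and no flag for background or saturation was used here.

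The 64 control probe sets were left out, and 22626 were tested. In the annotation 20380 of these carry 1 symbol, 691 several and 1555 none. For each gene the probe set with the highest mean was used. Groups came from the sample titles. All 14 arrays entered 1 fit on group under R 4.3.3, using lmFit, contrasts.fit and eBayes of limma 3.58.1, with Benjamini-Hochberg adjustment over all probe sets. On simulated data with 22626 probe sets the test called 40% of those changed by 0.5 on the log2 scale, and 86% of those changed by 1, for Instigator against Matrigel. For Non-instigator against Matrigel these shares were 42% and 96%, and between the tumour groups 44% and 90%. The simulated noise was normal and independent between probe sets and arrays, with each probe set's own residual SD. The changed probe sets were picked at random from all, 50 at each of 0.5, 1, 1.5 and 2, and were tested together. Benjamini-Hochberg adjustment is stricter where fewer probe sets change, and 0 were called in each comparison of the real data. The real arrays also deviate together and include arrays that stand apart. These shares may therefore not hold for the granule genes and may be too high for them.

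All granule probe sets are named. Genes named from the other neutrophil lists were taken from up to 4 per list and comparison by size of difference. Not every list has genes named in every comparison. The 8 genes most correlated with the granule mean are also named. The members and lists were chosen with earlier results of these data known. Alternatives covered the groups compared alone, brighter probe sets, quantile normalization, median centring, trend and robust estimation, array weights, a replicate block, arrays left out, the label of Instigator 5 and averaging over a gene's probe sets. Upstream sequences came from RefSeq tables of GRCm38.p6. Plots used matplotlib 3.10.9 under Python 3.11.15.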

Additional observations from a re-analysis of the deposited data

Results flagged for a closer look

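In 27 combinations of a granule probe set and a group, 5 held an array whose gap to its nearest neighbour took up more of the group's range than Dixon's critical value allows, where chance gives about 5% of such combinations. Camp on Instigator 4 lay at 12.12, against 13.07 to 13.31 on the other Instigator arrays. Mmp8 on Instigator 1 lay at 10.35, against 9.98 to 10.06. On Non-instigator 3, Ngp lay at 12.62, against 12.40 to 12.45 on the other Non-instigator arrays, and Chil3 at 12.02, against 11.62 to 11.66. Chil3 on Matrigel 1 lay at 11.10, against 11.60 to 11.65 on the other Matrigel arrays.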

How the results depend on the processing

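The number of granule probe sets called was 0 in each comparison under every alternative run. The median over the 8 genes ran, with single arrays left out, from 0.21 to 0.39 for Instigator against Matrigel, from 0.12 to 0.33 for Non-instigator against Matrigel and from 0.01 to 0.12 between the tumour groups. Array weights gave 0.18, 0.19 and 0.03. Directions turned for 3 genes at their brightest probe set and for the dimmer Mmp9 set, none of them called. Camp in Instigator against Matrigel ran from -0.19 to 0.11 with single arrays left out and was 0.042 without Instigator 4 and Matrigel 3. Between the tumour groups Chil3 was -0.13 with array weights, -0.10 without Instigator 4 and Matrigel 3, and ran from -0.10 to 0.12 with single arrays left out, and Lcn2 ran from -0.011 to 0.054. The dimmer Mmp9 set ran from -0.14 to 0.080 between the tumour groups and was 0.080 without Instigator 4 and Matrigel 3. Leaving arrays out for that set and for the other gene lists was chosen after seeing the data. The causes were not tested, apart from the values given without single arrays. Deviations of same-numbered arrays from their group means had r from -0.20 to 0.27 over 13 pairs, 5 of them over 0.1. The median r was 0.05 for same-numbered arrays and -0.02 for different-numbered ones. Such values cannot settle whether the replicate numbers pair the samples. With the replicate block the medians were 0.36, 0.30 and 0.07, and the calls stayed at 0.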
